A study of Homo sapiens with 4 samples.

Results

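IFITM1, IFITM2, IFITM3 and BST2 are 4 interferon-inducible genes for membrane-bound antiviral proteins. They were chosen from 25121 genes with a symbol on 4 one-colour Agilent human arrays, because the IFITM genes differed in opposite directions after ESS2 knockdown in PC3 and DU145 cells. All 6 of their probes, out of 58196, were found by matching the RefSeq accession of each probe to a gene symbol. IFITM1 and BST2 had 2 probes each, and IFITM2 and IFITM3 had 1 each. As the knockdown ratios chose these genes, the ratios are given here as a description.

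PC3 and DU145 are established human prostate cancer cell lines that grow without androgen. PC3-shC and DU145-shC cells carried an shRNA against luciferase, which is not a human gene. PC3-shESS2 and DU145-shESS2 cells carried an shRNA against ESS2, a nuclear protein described as a transcriptional coregulator. The sample labels describe lentiviral delivery in both lines, whereas the methods describe plasmid transfection and puromycin selection of PC3 cells, so which route was used is not settled here. Each condition had 1 array, hybridized from 0.1 µg of total RNA. There are therefore no replicates, no test was made, and precision is limited by having so few arrays. Each line may lie on a slide of its own, in which case line and slide cannot be told apart.

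Of the 60901 spots that were not controls, 50.8 to 52.6% lay well above background on each array and none was saturated. The ESS2 probe read 133 with the control and 53.6 with the knockdown shRNA in PC3, a log2 ratio of −1.45, and 85.7 and 17.3 in DU145, a log2 ratio of −2.35. GAPDH had log2 ratios of 0.18 in PC3 and 0.04 in DU145, and ACTB had log2 ratios of 0.15 and −0.04. CTNNA1, which PC3 cells are known to have lost, was dim (not well above background) on both arrays of PC3 and clearly measured on both arrays of DU145. All 4 epithelial markers examined (EPCAM, KRT8, KRT18 and CDH1) were well above background on all 4 arrays. EPCAM was lower with knockdown in DU145, at 2120 and 357 with control and knockdown shRNA (log2 ratio −2.61), and its part in the DU145 values below was not tested.

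IFITM proteins are small transmembrane proteins that hinder the fusion of enveloped viruses with cell membranes. IFITM1 lies mainly at the plasma membrane, and IFITM2 and IFITM3 lie mainly in endosomes and lysosomes. BST2, also called tetherin, has a membrane anchor at each end and holds budding virus particles at the surface of the producing cell. Type I interferon acts on these genes through its receptor, the kinases JAK1 and TYK2, and a STAT complex with IRF9 that binds interferon-stimulated response elements in promoters. Many tumour cells express IFITM genes and BST2 in the absence of infection.

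The 3 IFITM genes lie in 1 cluster on chromosome 11 of GRCh38.p14, with IFITM2 at chr11:307816-309395, IFITM1 at chr11:314040-315272 and IFITM3 at chr11:319676-320860. BST2 lies on chromosome 19, at chr19:17402939-17405630. The RefSeq promoter windows of this build run from 250 bases before to 50 bases after each gene start. These windows were searched on both strands for the core of the interferon-stimulated response element, written here as GAAA, any 2 bases and GAAA again, and for the interferon gamma-activated site TTCNNNGAA. The response element core was found in 1255 of 35116 windows, or 3.57% of them, and the activated site in 2689 windows, or 7.66%. The matches in 3 of the genes are shown because they lie in the region of each gene that type I interferon is known to act on. IFITM2 had no window in the table.

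The IFITM1 window held the response element core within both chr11:313992-314017 and chr11:314026-314051 on the plus strand, the cores beginning 40 and 6 bases before the gene start. The IFITM3 window held it within chr11:320895-320920 and chr11:320878-320903 on the minus strand, the cores beginning 52 and 35 bases before the start. The BST2 window held overlapping cores within chr19:17405736-17405765 on the minus strand, beginning 130 and 124 bases before the start. The coordinates are those of the stretches shown, flanking bases included. Each line is written 5′ to 3′ on the strand of the gene, with the bases of the core, or of both overlapping cores, in capitals.
IFITM1 distal match: aacagcagGAAATAGAAActtaagag
IFITM1 proximal match: acttctgaGAAACTGAAAcgacaggg
IFITM3 distal match: aatgccagGAAAAGGAAActgttgag
IFITM3 proximal match: actgttgaGAAACCGAAActactggg
BST2 overlapping matches: tctggGAAACTGAAACTGAAAacctaatta
All 3 windows thus held more than 1 core. The activated site was matched in IFITM1, 12 bases before the start and overlapping the proximal core, and in BST2, 136 and 58 bases before the start, where the first of these overlaps the cores. The IFITM3 window had no match to it. A match describes the letters of a window and not whether a factor binds there.

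The signals are fluorescence intensities after background subtraction, each with the error that the scanner software gives for the spot. For the comparisons they were put on a log2 scale, and the 75th percentile of each array was subtracted, so that a log2 ratio of 1 is a 2-fold difference after scaling. That percentile was a signal of 263 and 290 on the control and knockdown arrays of PC3, and of 212 and 218 on those of DU145. The error of a log2 ratio below comes from the scanner error of its spots. For most member spots well above background the scanner error was close to 10% of the signal, so the errors of the ratios are nearly alike. The error of a ratio covers neither cultures nor hybridizations.

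IFITM1 was well above background on all 4 arrays with both of its probes. Its brighter probe read 30100 ± 3010 in PC3-shC and 1020 ± 102 in PC3-shESS2 cells. The same probe read 73.0 ± 7.63 in DU145-shC and 284 ± 28.4 in DU145-shESS2 cells. Knockdown thus went with a lower signal in PC3 and a higher signal in DU145, and the PC3-shESS2 signal was still above both DU145 signals. The log2 ratio of knockdown over control was −5.02 ± 0.20 in PC3 (32.5-fold lower) and 1.92 ± 0.21 in DU145 (3.78-fold higher). The second IFITM1 probe read 14900 ± 1490 in PC3-shC, 463 ± 46.4 in PC3-shESS2, 25 ± 3.46 in DU145-shC and 132 ± 13.4 in DU145-shESS2 cells. It put the 4 arrays in the same order. Its log2 ratios were −5.15 ± 0.20 in PC3 and 2.36 ± 0.25 in DU145, so that both probes differed by 0.13 in PC3 and by 0.44 in DU145. The DU145 ratio of the brighter probe was 1.30 with normexp background correction, which models background on the raw spot signal. In these bulk samples, fewer cells that express a gene and less of its RNA per cell cannot be told apart.

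IFITM2 read 36000 ± 3600 in PC3-shC, 11900 ± 1190 in PC3-shESS2, 640 ± 64.1 in DU145-shC and 2300 ± 230 in DU145-shESS2 cells. Its log2 ratio of knockdown over control was −1.74 ± 0.20 in PC3 (3.34-fold lower) and 1.81 ± 0.20 in DU145 (3.49-fold higher). The 2 ratios were of nearly equal size and opposite sign. IFITM3, the family member best known for blocking entry of influenza virus, read 69300 ± 6930 in PC3-shC, 21700 ± 2170 in PC3-shESS2, 541 ± 54.1 in DU145-shC and 2120 ± 212 in DU145-shESS2 cells. Its log2 ratio was −1.82 ± 0.20 in PC3 (3.52-fold lower) and 1.93 ± 0.20 in DU145 (3.81-fold higher). The lines did not overlap for either gene, as both PC3 signals lay above both DU145 signals.

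BST2 was well above background in PC3 only. Its brighter probe read 5040 ± 504 with the control shRNA and 396 ± 39.7 with knockdown, a log2 ratio of −3.81 ± 0.20 (14-fold lower). Its second probe had signals of 2900 ± 290 and 216 ± 21.7, a log2 ratio of −3.89. The probes of BST2 thus gave ratios within 0.08 of each other. In DU145 neither probe was well above background on either array, with signals of 2.40 ± 1.92 and 8.64 ± 2.01 for the brighter probe with control and knockdown shRNA, and 5.08 ± 2.12 and 7.94 ± 2.08 for the second. The lowest signal well above background was 8.65 and 8.15 on these arrays. No fold is given for BST2 in DU145, and whether it differed with knockdown there cannot be read from these arrays.

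**Figure D1:**
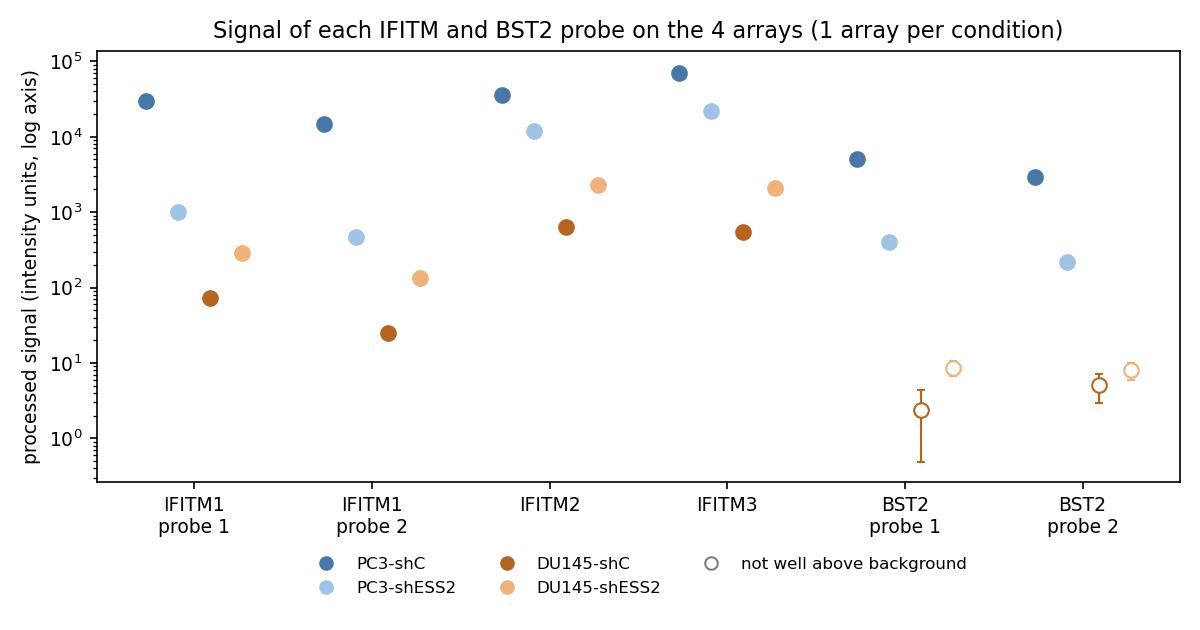
Processed signal (intensity units, log axis) of each of the 6 probes on the control (shC) and knockdown (shESS2) arrays of PC3 and DU145, 1 point per array, with the scanner error as bars where it exceeds the point. Open points were not well above background. Both PC3 arrays lie above both DU145 arrays for every probe, and for the 4 IFITM probes the shESS2 array lies below the shC array in PC3 and above it in DU145.

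In PC3, all 4 genes were lower by more than 2-fold with knockdown, where 3.87% of the 16751 genes compared were. In DU145, all 3 IFITM genes were higher by more than 2-fold, where 2.36% of the 16826 genes compared were. With normexp background correction these shares of all genes were 1.95% and 0.828%, and without the filter on dim genes they were 4.75% and 3.82%. Among the 15763 genes well above background on both PC3 arrays, IFITM1 had the rank 11 from the lowest ratio, BST2 19, IFITM3 159 and IFITM2 170. Among the 15933 genes well above background on both DU145 arrays, IFITM3 had the rank 28 from the highest ratio, IFITM1 29 and IFITM2 40.  IFITM1 stood apart from IFITM2 and IFITM3 in PC3. In DU145 the 3 ratios by the brighter probes (1.92, 1.81 and 1.93) lay within the scanner error of each other. With normexp the same probes gave 1.30, 1.69 and 1.83, and the second IFITM1 probe gave 2.36 without it. The closeness in DU145 thus depended on the processing and the probe. The shares and ranks above restate the ratios by which the genes were chosen.

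**Figure D2:**
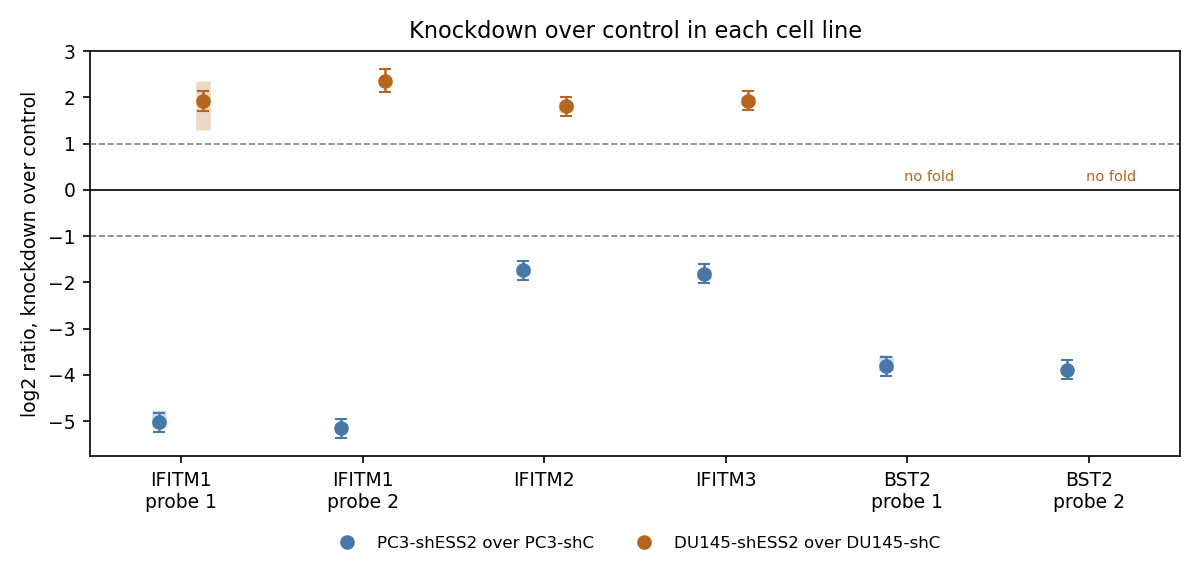
Log2 ratio of knockdown over control for each probe in PC3 and DU145, with the scanner error of the ratio as bars and, for the brighter probe of each gene, the range over the alternative processing settings as a pale band. Dashed lines mark 2-fold. Every PC3 ratio lies below −1, every IFITM ratio in DU145 lies above 1, and BST2 has no fold in DU145.

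The opposite directions were uncommon among all genes. Of the 15462 genes compared in both lines, 27 (0.175%) were past 2-fold lower in PC3 and past 2-fold higher in DU145. The 3 IFITM genes are among these 27, but they were chosen for opposite directions, so their place there restates the choice. The log2 ratio in PC3 minus that in DU145 was −6.94 for IFITM1, −3.54 for IFITM2 and −3.75 for IFITM3. With 1 array per condition, the difference between the lines was not tested. Within a line, 286 probes spotted 10 times on the PC3 arrays and 283 on the DU145 arrays gave log2 ratios between spots with a median SD of 0.05 in each line. That spread covers spots of 1 hybridization only.

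The control arrays alone also set the lines apart. PC3-shC signals were 332-fold above DU145-shC signals for IFITM1 (log2 ratio 8.38), 103-fold for IFITM3 (6.69) and 45.3-fold for IFITM2 (5.50), after scaling. BST2 was at least 470-fold higher in PC3-shC cells, measured against the lowest signal well above background on the DU145-shC array, and at least 270.2-fold higher by its second probe. Under the alternative settings these log2 ratios ran from 7.48 to 8.91 for IFITM1, 6.24 to 7.15 for IFITM3, 5.06 to 5.96 for IFITM2 and 6.18 to 10.73 for BST2. All 4 genes were thus higher in PC3-shC cells by more than 2-fold, BST2 being compared only through its PC3 signal, a difference that 22.2% of the 17410 genes compared showed in that direction (35.1% with median scaling and 14% with the authors' scaled values), and for the 3 IFITM genes the ranks from the highest ratio were 9, 30 and 54 among the 14961 genes well above background on both arrays. Between the knockdown arrays the differences of the 3 IFITM genes were smaller, while for BST2 both values are lower bounds and have no order. PC3-shESS2 over DU145-shESS2 was 2.70-fold for IFITM1, 3.89-fold for IFITM2, 7.69-fold for IFITM3 and at least 34.5-fold for BST2 (at least 19.9-fold by its second probe, with dim signals at or near the lowest one well above background), where again 22.2% of genes were higher by more than 2-fold. These comparisons use the same arrays as the knockdown ratios, and the line may share its differences with the slide.

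A probe for IFITM4P, a transcribed pseudogene of the family on chromosome 6 that was named here after its values were seen, read 19900 and 5650 with control and knockdown shRNA in PC3, and 168 and 594 in DU145. Its log2 ratios were −1.96 in PC3 and 1.78 in DU145. IFITM2 and IFITM3 are near-identical over much of their coding sequence, and the probes for IFITM2, IFITM3 and IFITM4P may bind each other's transcripts. How far they do was not tested, as the probe sequences were not used here. IFITM5, a bone-specific member of the family, was not well above background on any array. IFITM10, a more distant member, read 37.8, 38.3, 137 and 222 in the same order. Its log2 ratios were −0.12 in PC3 and 0.66 in DU145, and unlike the other measured members it was lower in PC3-shC than in DU145-shC cells (log2 ratio −2.17).

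The genes beside the members were next examined, as 5 genes with a probe on each side. Around the IFITM cluster 8 of the 10 neighbours could be compared in each line. In PC3 their log2 ratios ran from −1.38 to 0.05 with a median of −0.21, and 1 of them was lower by more than 2-fold, beside 3.87% of all genes. This was B4GALNT4, a glycosyltransferase gene next to IFITM3, with a log2 ratio of −1.38 in PC3 and 0.93 in DU145. In DU145 no neighbour of the cluster passed 2-fold, beside 4.83% of all genes, with a range from −0.80 to 0.93. Around BST2, 8 neighbours could be compared and none passed 2-fold in either line, beside 7.75% of all genes in PC3 and 4.83% in DU145, with a range from −0.29 to 0.25 in PC3 and from −0.50 to 0.18 in DU145. Over all genes the median log2 ratio was −0.06 in PC3 and −0.02 in DU145.

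Genes encoding other restriction factors and interferon-stimulated effectors gave the wider setting, from a list of 40 that does not include the 4 genes. In PC3, 39 could be compared, of which 18 were lower (3.87% of all genes) and 6 were higher (3.88% of all genes) by more than 2-fold, with a median log2 ratio of −0.92 beside −0.06 over all genes. The share of all genes past 2-fold in either direction was 7.75%. Lower signals were found for the cytidine deaminase genes APOBEC3C (−3.39), APOBEC3F (−3.31, and −0.87 by its second probe) and APOBEC3B (−2.32), and APOBEC3G was at least 62.7-fold lower, as it was not well above background in PC3-shESS2 cells. The GTPase genes MX2 (−3.75) and MX1 (−3.32) were lower as well, as were IFI44L (−3.81), IFI6 (−3.72), the ubiquitin ligase gene TRIM22 (−3.09), OAS2 (−2.40), which makes the activator of RNase L, and the scramblase gene PLSCR1 (−2.17). Higher signals were found for RSAD2 (4.58), which encodes viperin, the exonuclease gene ISG20 (2.80), OASL (2.60) and IFIT2 (2.17), a sensor of viral RNA. The list thus had genes in both directions in PC3. The 4 members were all lower, but they were chosen with these ratios known, so the contrast is a description only.

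In DU145, 31 of the 40 genes could be compared, 1 was lower (2.47% of all genes) and 5 were higher (2.36% of all genes) by more than 2-fold, and the median log2 ratio was 0.17 beside −0.02 over all genes, of which 4.83% passed 2-fold. The 5 higher genes were OASL (2.19), IFIT2 (1.83), IFIT3 (1.74), IFIT1 (1.29) and the GTPase gene GBP2 (1.04). OAS3 was the lower one (−1.11). Of the 31 genes compared in both lines, GBP2, with log2 ratios of −1.58 in PC3 and 1.04 in DU145, was the 1 gene that was lower in PC3 and higher in DU145 past 2-fold, as the 3 IFITM genes were. With normexp background correction the DU145 ratio of GBP2 was 0.63, within 2-fold. IFIT2 and OASL were higher in both lines, and OAS3 was lower in both (its DU145 ratio was −0.59 with normexp and −0.95 as the mean of its probes). A further 11 genes were lower in PC3 and within 2-fold in DU145. Over all genes 0.175% showed the pattern of GBP2. The shares of all genes with the other patterns were not counted, so these counts are a description. Between the control arrays, 31 genes of the list were well above background on both, and 20 of them were more than 2-fold higher in PC3, with a median log2 ratio of 1.87. Over all genes well above background on both arrays the share was 21.7% and the median 0.16. A further 8 genes of the list, IFI44L and OAS1 among them, were dim in DU145 and compared only because of their PC3 signal, so they are left out of these values.

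**Figure D3:**
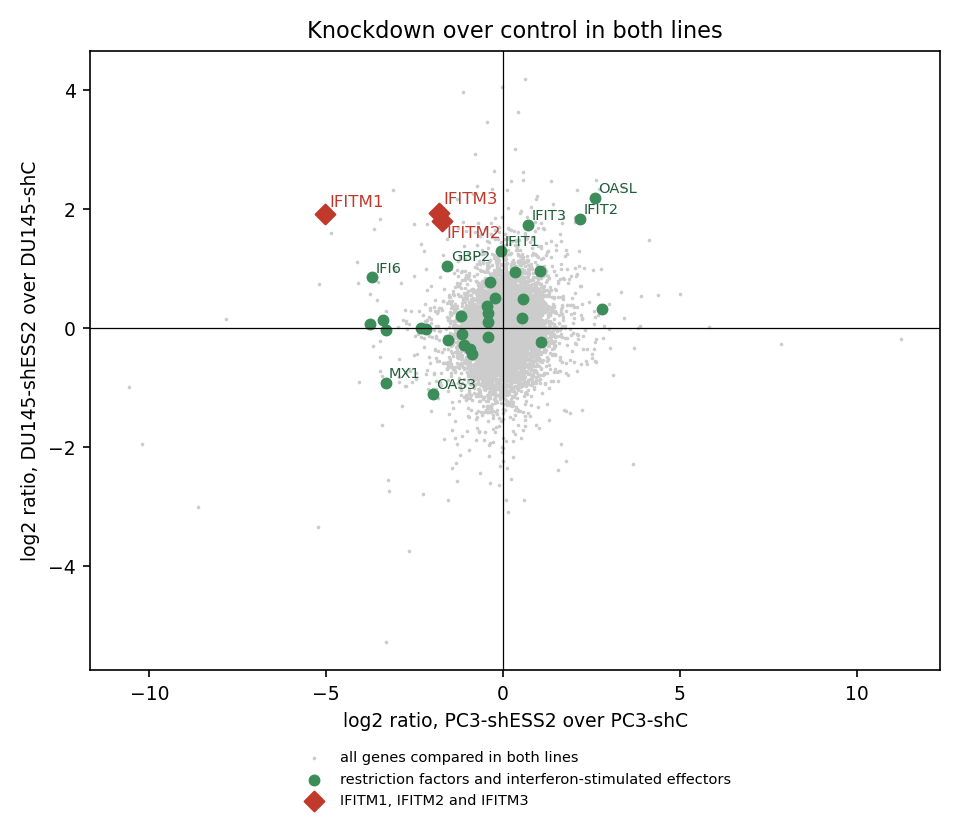
Log2 ratio of knockdown over control in PC3 (horizontal axis) against DU145 (vertical axis), 1 point per gene compared in both lines. Grey points are all genes, green points the restriction factors and interferon-stimulated effectors, and red diamonds IFITM1, IFITM2 and IFITM3, which lie at the upper left with negative ratios in PC3 and positive ratios in DU145, where GBP2 is the only green point past 2-fold in the same directions.

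Receptors, kinases and transcription factors of the interferon pathway, with the feedback inhibitors SOCS1, SOCS3 and USP18, were taken as a list of 18 genes. In PC3, 4 were lower and 1 was higher by more than 2-fold, beside 3.87% and 3.88% of all genes. The 4 were the transcription factor genes IRF9 (−2.74) and IRF7 (−2.10), the receptor gene IFNGR1 (−1.21) and IRF2, which was at least 2.63-fold lower, against its own dim signal. Other probes than the brightest passed 2-fold for the receptor genes IFNAR2 (−1.13, and −0.46 by the brightest) and IFNLR1 (1.2, and 0.74 by the brightest). The kinase gene JAK2 was the higher one (1.46), and STAT2 lay just inside 2-fold (−0.97). Of the 17 genes of the list that could be compared in DU145, none passed 2-fold, where 4.83% of all genes did, so that this count is near the overall share. There STAT2 had a log2 ratio of 0.36, IRF9 of 0.12 and IRF7 of 0.19, beside ratios from 1.81 to 1.93 for the IFITM genes. Of 10 genes for proteins that bind or modify IFITM proteins or BST2, among them the protease gene ZMPSTE24, the palmitoyltransferase gene ZDHHC20 and the ubiquitin ligase gene NEDD4, none passed 2-fold in either line, beside 7.75% of all genes in PC3 and 4.83% in DU145, so that a count of 0 is near the overall share. Their log2 ratios ran from −0.48 to 0.93 in PC3 and from −0.63 to 0.43 in DU145, though a second probe for VAPA, a membrane protein that binds IFITM3, gave −1.32 in PC3.

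Markers of leukocytes and endothelium were examined as cell types that the cultures should lack. Of PTPRC, CD3E, CD14 and PECAM1, 3 were measured well above background with either shRNA in PC3, and 2 with either in DU145. Their summed signal, as a multiple of the 75th percentile, was 2.38 with control and 0.477 with knockdown shRNA in PC3, and 0.969 and 1.47 in DU145. The sum was thus lower with knockdown in PC3 and higher in DU145, as the IFITM signals were, while neither PTPRC nor CD14, the markers that could be compared in DU145, passed 2-fold there. The part of these markers in the IFITM and BST2 values was not tested. CD3E, which defines T cells, was not well above background on any array. PTPRC, which defines leukocytes, had log2 ratios of −0.13 in PC3 and 0.10 in DU145, CD14 had −2.16 and 0.63, and PECAM1 had −4.51 in PC3, where another of its probes gave −1.34.

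For each gene, the 3 genes with the most similar pattern over the 4 arrays were found by Euclidean distance between log2 values centred on each gene's mean, among 17126 genes that 2 or more arrays measured well above background, with dim values below the lowest signal well above background raised to it. For IFITM3 these were IFITM4P (distance 0.18), GDF15 (0.76) and PLAAT4 (0.88), and for IFITM2 they were ALPK3 (0.66), KCTD12 (0.88) and CNTFR-AS1 (0.92). BST2 was nearest to IFI44L (0.52), ACTG2 (1.12) and OAS1 (1.30), which like it were dim on both DU145 arrays. IFITM1 had more distant neighbours, TREM1 (1.38), MMP7 (1.79) and VNN1 (1.82). Of these, MMP7 and VNN1 were dim on 2 arrays and TREM1 on 1, as were ALPK3 and CNTFR-AS1. The distances of these genes and of the 3 genes nearest to BST2 rest partly on dim or raised values. The similarity rests on 4 values per gene and is a description.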

How the data were processed

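The authors deposited the scanner output of 4 one-colour (Cy3) arrays, as written by Agilent Feature Extraction. Its processed signal is a spot intensity after background subtraction. They also deposited scaled intensity values, which equal the processed signal times 1 constant per array. The methods name GeneSpring without settings, so the signals were log2-transformed and scaled to the 75th percentile of the non-control spots of an array. Outlier spots were left out. The brightest probe on average stood for a gene, and a comparison needed 1 of its 2 arrays well above background. A dim value below the lowest signal well above background was raised to it and otherwise kept, and the fold against it is written as a lower bound, and no fold was given where both arrays were dim. A gene was counted when past 2-fold.

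Symbols and sequences came from RefSeq tables of GRCh38.p14, and 35077 of 58196 probes had a symbol. The PC3 and DU145 files carry different annotation releases of the array, with the same accession for 85.5% of non-control spots and for all 6 member probes. The members and the gene lists were chosen with earlier results of these data known. Text names the members, IFITM4P, listed genes past 4-fold, listed receptor, STAT and IRF genes past 2-fold, neighbours past 2-fold and the 3 most similar genes, with a few others named for context. Some listed genes are not reported here, and the list counts leave them out. Alternatives were median scaling, quantile normalization, normexp correction (limma, offset 50, on median spot signals), the authors' scaled values, probes averaged or taken singly, outlier spots kept, dim spots at their plain signal, no filter, and a filter that required both arrays. The calculations were tested on simulated data. R 4.3.3, limma 3.58.1, Python 3.11.15, numpy 2.4.6, pandas 2.3.3 and matplotlib 3.10.9 were used.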

Additional observations from a re-analysis of the deposited data

Results flagged for a closer look

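The 3 IFITM genes are listed because knockdown over control pointed in opposite directions in the 2 lines. The log2 ratio in PC3 minus the log2 ratio in DU145 was −6.94 for IFITM1, −3.54 for IFITM2 and −3.75 for IFITM3. The genes were chosen for this pattern, each line has 1 array per condition, and the difference was not tested.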

How the results depend on the processing

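No paired analysis was made, and as each condition has 1 array, no replicate could be left out. Under the 10 alternatives, all 4 genes stayed more than 2-fold lower in PC3 and all 3 IFITM genes more than 2-fold higher in DU145. The log2 ratios in PC3 ranged from −5.15 to −4.75 for IFITM1, −1.84 to −1.64 for IFITM2, −1.92 to −1.72 for IFITM3 and −3.91 to −3.56 for BST2. In DU145 they ranged from 1.30 (normexp) to 2.36 (the second probe) for IFITM1, 1.69 to 1.90 for IFITM2 and 1.83 to 2.04 for IFITM3. BST2 had a ratio in DU145 only without the filter on dim genes (1.81), from signals not well above background, which limit what can be said of it. Of the listed restriction factors and effectors, 16 to 20 genes were lower and 4 to 7 higher in PC3 (18 and 6 in the report), and 0 or 1 lower and 4 to 6 higher in DU145, leaving aside single probes in PC3. The count of genes past 2-fold in PC3, 1299, became 571 with normexp and 2624 without the filter. In DU145 the count of 813 became 216 with normexp, 2020 without the filter and 548 with the filter on both arrays. Between the control arrays, 3480 genes were lower and 3863 higher in PC3, 2371 and 6132 with median scaling, 2021 and 3049 with normexp, and 5159 and 2399 with the authors' values, which put the median of all genes at 0.13, 0.58, 0.04 and −0.34. In PC3 the split of 649 lower and 650 higher became 803 and 511 with median scaling (median −0.16) and 535 and 792 with the authors' values.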
